A study of Mus musculus with 12 samples.

Results

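The dual-specificity MAP kinase phosphatases described here are 9 genes, Dusp1, Dusp4, Dusp5, Dusp6, Dusp7, Dusp8, Dusp10, Dusp14 and Dusp16, taken by gene symbol from the 55536 gene IDs of each count table. All 9 had counts in every library and passed the filter on low counts in total RNA, in footprints and in the model of translation. Dusp8 did so only through the libraries of treated cells, where it is high. Fibroblasts from mouse embryos (MEF), cells of connective tissue, were cultured for 6 h with 100 nM halofuginone (HF), an inhibitor of the prolyl-tRNA synthetase activity of EPRS, or for 6 h without it. Both groups had dialyzed serum in high-glucose DMEM with antibiotics during those hours, so control cells shared every listed part of the medium except HF. Each condition was read as total RNA and as ribosome-protected fragments (RPF, footprints), with 3 libraries in each of the 4 groups. The sources used here give neither the mouse strain nor whether the cells were primary or an established line. They also do not say that replicates were separate cultures, so each p-value covers library-to-library spread that may be only technical.

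MAP kinases (ERK, JNK and p38) pass growth factor and stress signals to the nucleus and are active only while a threonine and a tyrosine in their activation loop are both phosphorylated. Dual-specificity phosphatases remove both phosphates and so end the signal. Several of their genes are themselves switched on by MAP kinase activity, which makes them a negative feedback. Dusp1, Dusp4 and Dusp5 encode inducible nuclear enzymes, Dusp6 and Dusp7 cytoplasmic enzymes selective for ERK, and Dusp8, Dusp10 and Dusp16 enzymes that prefer JNK and p38. Dusp14 encodes a small atypical enzyme of the same superfamily without the MAP kinase binding domain of the others.

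RNA libraries held 1017651 to 1697554 counts in HF cells and 718096 to 1295434 in control cells, and footprint libraries held 562794 to 1958356 in HF cells and 724609 to 2527791 in control cells. The ribosomal RNA locus Gm42418 took 7.35% to 9.48% of the counts of HF RNA libraries, against 11.8% to 13.7% in control RNA libraries. All 8 fibroblast markers had counts in each group, but 2 were near the floor in RNA. Col3a1 had 2 counts over the HF and 15 over the control RNA libraries, and Pdgfra 28 and 13. Of the fibroblast markers tested, 1 of 6 was called higher and 3 lower in RNA, and 2 of 7 higher and 4 lower in footprints. The higher call of Thy1 in footprints ended in 4 of 6 fits with 1 library left out. It also ended with upper-quartile factors, without a filter, under DESeq2 and with the replicate block. Fn1 averaged 4979 CPM in HF and 1540 CPM in control RNA libraries, while Col1a1, Col1a2 and Pdgfrb fell. The summed CPM of the 8, which holds Fn1, was 9211 to 9494 in HF and 7428 to 7710 in control RNA libraries, and 12190 to 12550 in HF and 15620 to 16620 in control footprint libraries. Epcam, Cdh1 and Krt8, which mark epithelial cells, and Pecam1 and Tek, which mark endothelial cells, were at 0 in all RNA libraries. The 5 epithelial markers summed to 194 to 200 CPM in HF and 71.9 to 87.2 CPM in control RNA libraries, with counts only in Krt18 and Krt19, and to 217 to 377 CPM in HF and 233 to 289 CPM in control footprint libraries. The 4 endothelial markers summed to 5.28 to 15.7 CPM in HF and 0 to 1.61 CPM in control RNA libraries, and the 5 leukocyte markers to at most 5.89 CPM in any library. The 5 muscle and neural markers summed to 11.8 to 31.7 CPM in HF and 16.8 to 41.1 CPM in control RNA libraries. In footprint libraries they summed to 28.4 to 60.7 CPM in HF and 66.0 to 85.8 CPM in control. Of these, Tubb3 was called lower in footprints (−0.74), which ended without RPF control 2 or RPF HF 2. What part these shifts have in the values below was not tested. Values are CPM (counts scaled to library size with TMM factors), fewer cells and less RNA per cell cannot be told apart, and CPM of different genes were not compared because no transcript lengths were used.

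The RNA comparison asks how transcripts of the phosphatases differ after 6 h of HF. Transcripts of 5 members rose, those of 1 fell and 3 did not pass the test, in edgeR's two-sided quasi-likelihood test over all 9145 genes at an adjusted p of 0.05. Over all tested genes 22.2% were called higher and 21.4% lower in HF cells. The median log2 fold change was 1.03 over the members, beside −0.02 over all genes. Members were chosen with earlier results of these data known. Their counts and medians beside all genes, here and below, are therefore only a description. Dusp8 changed most among the members, 9.67-fold, and its log2 fold change ranked 66 of 9145 by size. The 3 members that prefer JNK and p38 (Dusp8, Dusp10 and Dusp16) all rose, the nuclear Dusp1 and Dusp5 rose, and Dusp7 fell.

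The upstream sequences of the members that rose are shown because the family is known for induction through promoter elements. RefSeq promoter sequence (build GRCm38.p6) was found for 8 members, not for Dusp4. The 250 bases before the start were searched on both strands for the cyclic AMP response element (CRE) TGACGTCA, its core TGACG, the AP-1 site TGANTCA, the C/EBP-ATF response element TGATGNAA, the ETS core CCGGAA and the CArG box. Every CRE also holds the core on both strands. Windows of 4 members with the core are printed 5′ to 3′, in capitals where CRE or core letters stand (CGTCA in Dusp5 is the core on the opposite strand).
Dusp1, chr17:26508473-26508722, minus strand: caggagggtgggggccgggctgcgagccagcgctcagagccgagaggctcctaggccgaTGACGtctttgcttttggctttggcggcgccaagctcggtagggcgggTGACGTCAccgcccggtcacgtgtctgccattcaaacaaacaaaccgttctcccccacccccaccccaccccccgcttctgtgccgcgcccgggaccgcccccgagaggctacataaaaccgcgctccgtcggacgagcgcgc
Dusp8, chr7:142095285-142095534, minus strand: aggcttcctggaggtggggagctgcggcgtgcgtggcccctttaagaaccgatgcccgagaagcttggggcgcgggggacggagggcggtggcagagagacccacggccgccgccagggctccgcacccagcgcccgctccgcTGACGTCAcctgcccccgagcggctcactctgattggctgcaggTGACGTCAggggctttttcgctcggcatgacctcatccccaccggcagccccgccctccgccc
Dusp16, chr6:134792629-134792878, minus strand: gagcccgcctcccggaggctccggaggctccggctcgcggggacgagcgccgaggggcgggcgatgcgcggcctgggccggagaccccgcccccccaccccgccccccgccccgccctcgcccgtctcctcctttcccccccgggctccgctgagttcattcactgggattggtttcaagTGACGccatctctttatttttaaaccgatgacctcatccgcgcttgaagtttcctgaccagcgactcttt
Dusp5, chr19:53528895-53529144, plus strand: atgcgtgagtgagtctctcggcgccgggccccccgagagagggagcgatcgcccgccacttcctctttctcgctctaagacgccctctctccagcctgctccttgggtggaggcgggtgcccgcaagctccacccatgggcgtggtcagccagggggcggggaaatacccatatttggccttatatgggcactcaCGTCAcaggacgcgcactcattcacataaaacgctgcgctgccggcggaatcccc

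The CRE stood in 2 of the 8 windows, against 1.55% of all 32851 promoter windows of this length. Dusp8 held 2 CREs, from −107 to −100 and from −63 to −56 counted from the start, and Dusp1 held 1 from −143 to −136. The core TGACG stood in 4 windows, those of Dusp1, Dusp5, Dusp8 and Dusp16, against 17.8% of all windows. All 4 are members whose RNA rose, the remaining such member, Dusp10, had no match, and neither had Dusp6, Dusp7 or Dusp14. Whether any of these elements has a part in the RNA changes was not tested. Dusp5 held 2 neighbouring CArG boxes, from −82 to −73 and from −72 to −63 (1.47% of all windows have one). Dusp14 held the ETS core from −65 to −60 (3952 of all windows have it). No window held the AP-1 or the C/EBP-ATF letters, which 6.75% and 3.45% of windows have. The members' windows had 56.4% to 77.2% G and C, above the median of 52.4% over all windows, and the part of base composition in these matches was not tested. The Dusp8, Dusp14 and Dusp16 windows lie inside the annotated gene spans, which begin farther upstream, and the Dusp7 window runs into its span.

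Dusp1 (ENSMUSG00000024190, chromosome 17 from 26505591 to 26508472), an early-response phosphatase of JNK, p38 and ERK, had 230, 204 and 192 CPM in the HF RNA libraries, against 91.8, 95.8 and 107 CPM in the control ones. Its footprints were at 251, 237 and 209 CPM in HF cells, against 85.2, 74.8 and 87.1 CPM in control cells. Every HF library lay above every control library in both assays. The fold change was 2.12 in RNA (log2 1.09, SE 0.15, edgeR adjusted p = 1.2e-08) and 2.86 in footprints (log2 1.52, SE 0.16, edgeR adjusted p = 1.7e-09). Dusp1 and Dusp5 each rose in both assays.

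Dusp5 (ENSMUSG00000034765, chromosome 19 from 53529145 to 53541809), which inactivates ERK in the nucleus, had 213, 267 and 212 CPM in HF RNA libraries, against 117, 109 and 111 CPM in control RNA libraries. In footprints it had 129, 110 and 116 CPM in HF cells, against 43.8, 35.5 and 73.0 CPM in control cells. The groups did not overlap in either assay, and RPF control 3 was the highest of its group. It rose 2.04-fold in RNA (log2 1.03, SE 0.14, edgeR adjusted p = 1.7e-08) and 2.52-fold in footprints (log2 1.33, SE 0.22, edgeR adjusted p = 9.0e-06).

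Dusp4 (ENSMUSG00000031530, chromosome 8 from 34807610 to 34819894) encodes a nuclear phosphatase that, like Dusp1, is induced by mitogens. It was lower in HF cells in both assays, but only the footprint difference passed. Its RNA was at 116, 94.3 and 100.1 CPM in HF cells, against 123, 121 and 131 CPM in control cells. Although these groups did not overlap, the RNA difference did not pass (log2 −0.28, 95% interval −0.61 to 0.06, edgeR adjusted p = 0.18). Footprints were at 81.6, 77.0 and 58.8 CPM in HF cells, against 113, 112 and 121 CPM in control cells, and fell 1.54-fold (log2 −0.62, SE 0.19, edgeR adjusted p = 0.0074). It was the only member whose footprints fell.

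**Figure D1:**
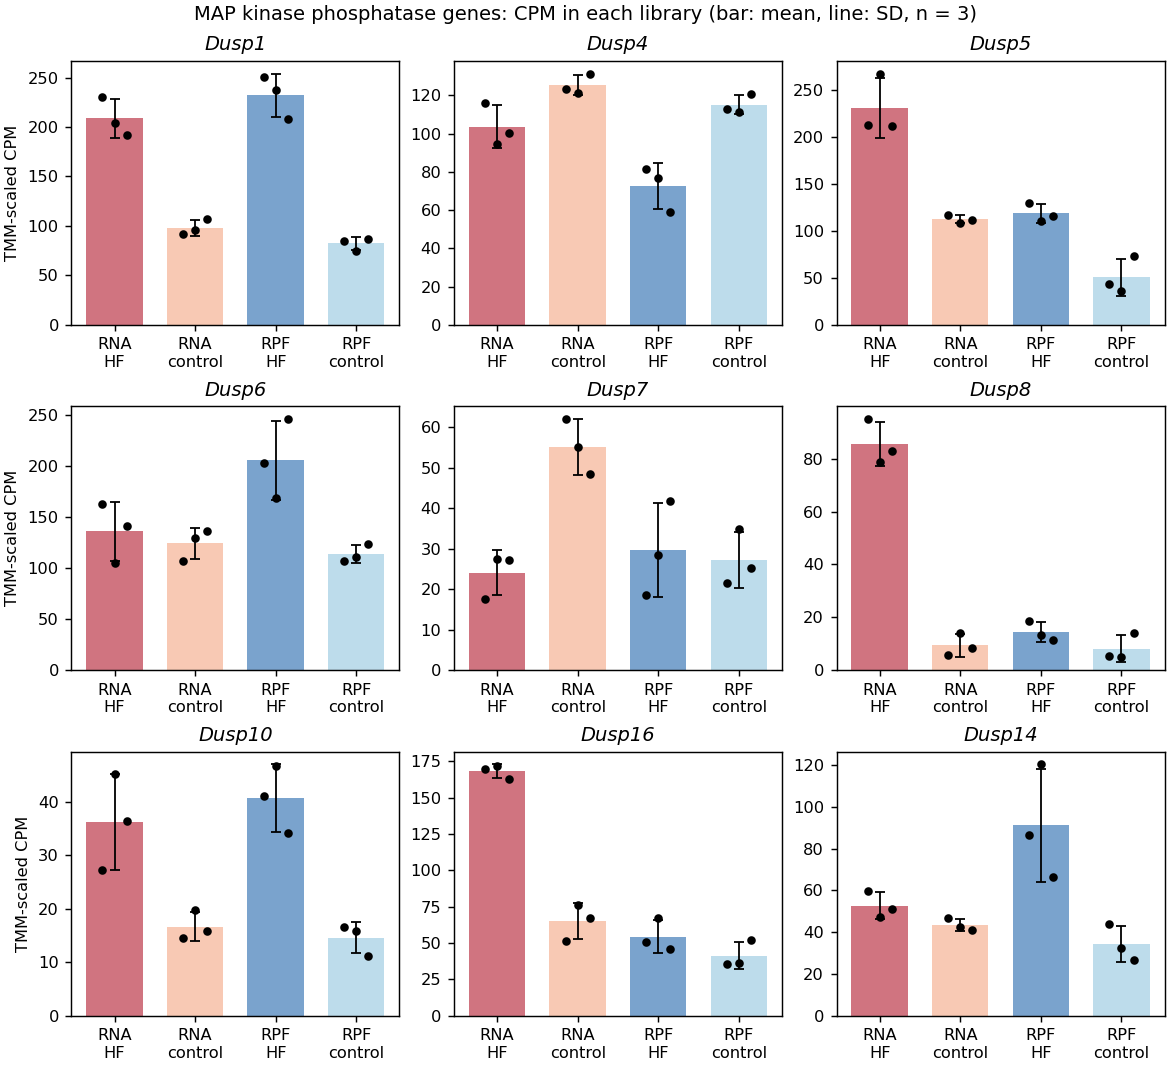
TMM-scaled CPM of each member by library in total RNA and footprints (RPF), HF left of control. Bars are means, lines SD and points the 3 libraries of a group. Dusp8 and Dusp16 show tall HF bars in RNA. Their HF bars in footprints (14.4 and 54.4 CPM) lie above the control bars (8.07 and 41.3 CPM), with overlapping libraries.

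Dusp6 (ENSMUSG00000019960, chromosome 10 from 99263231 to 99267489), the cytoplasmic ERK phosphatase, differed between the assays. RNA was at 163, 105 and 141 CPM in HF cells, against 107, 130 and 136 CPM in control cells, and the groups overlapped (log2 0.15, 95% interval −0.18 to 0.48, edgeR adjusted p = 0.49). Its footprints were at 203, 169 and 247 CPM in HF cells, against 107, 111 and 124 CPM in control cells, with no overlap. They rose 1.82-fold (log2 0.87, SE 0.16, edgeR adjusted p = 4.6e-05).

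Dusp7 (ENSMUSG00000053716, chromosome 9 from 106368560 to 106375724), the other ERK phosphatase of the cytoplasm, was the only member whose RNA fell. It had 17.6, 27.5 and 27.1 CPM in HF RNA libraries, against 62.0, 55.0 and 48.3 CPM in control RNA libraries, a 2.28-fold fall (log2 −1.19, SE 0.29, edgeR adjusted p = 0.000505). Footprints were at 18.6, 28.4 and 41.7 CPM in HF cells, against 21.5, 34.9 and 25.3 CPM in control cells. They overlapped and did not pass (log2 0.01, 95% interval −0.72 to 0.75, edgeR adjusted p = 0.98), and the sign of that value changed with the scaling, the filter and the libraries left out.

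Dusp8 (ENSMUSG00000037887, chromosome 7 from 142079487 to 142095907), a phosphatase that acts on JNK and p38, whose 2 CREs are printed above, had 108, 80 and 141 RNA counts in HF libraries, against 7, 10 and 8 in control libraries. In CPM these were 94.99, 78.6 and 83.0 in HF cells, against 5.64, 14.1 and 8.40 in control cells. The RNA groups were far apart (log2 3.27, SE 0.32, edgeR adjusted p = 9.3e-14). In both assays Dusp8 passed the filter (minimum count of 10, scaled to library size) only through its HF libraries. Its changes and ranks therefore depend on the group where it is high. Footprint counts were low, 33, 8 and 6 in HF libraries, against 13, 8 and 10 in control libraries. The footprint CPM of 18.6, 13.4 and 11.4 in HF cells overlapped with 5.27, 4.90 and 14.1 in control cells, and the difference did not pass (log2 1.10, 95% interval −0.01 to 2.21, edgeR adjusted p = 0.10). It passed without RPF control 3 (log2 1.55, edgeR adjusted p = 0.045).

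Dusp16 (ENSMUSG00000030203, chromosome 6 from 134715468 to 134807063), which also acts on JNK and p38, likewise rose in RNA without a called rise in footprints. RNA was at 170, 172 and 163 CPM in HF cells, against 51.5, 76.1 and 67.2 CPM in control cells, a 2.63-fold rise (log2 1.40, SE 0.18, edgeR adjusted p = 6.6e-10). Footprints were at 50.6, 66.9 and 45.5 CPM in HF cells, against 35.7, 36.2 and 52.0 CPM in control cells. They overlapped and did not pass (log2 0.44, 95% interval −0.09 to 0.97, edgeR adjusted p = 0.18). That value was 0.29 without RPF HF 2.

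Dusp10 (ENSMUSG00000039384, chromosome 1 from 184034381 to 184075636), the remaining member that prefers JNK and p38, rose in both assays. RNA was at 27.3, 45.2 and 36.5 CPM in HF cells, against 14.5, 19.7 and 15.8 CPM in control cells (log2 1.14, SE 0.36, edgeR adjusted p = 0.0076). This call ended without RNA HF 2, the highest HF library (log2 0.98, edgeR adjusted p = 0.057). Footprints were at 41.1, 46.8 and 34.1 CPM in HF cells, against 16.6, 15.9 and 11.2 CPM in control cells, with no overlap (log2 1.42, SE 0.33, edgeR adjusted p = 8.1e-04).

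Dusp14 (ENSMUSG00000018648, chromosome 11 from 84048033 to 84069256), the atypical member, had 59.8, 47.2 and 51.2 CPM in HF RNA libraries, against 46.7, 42.3 and 41.0 CPM in control RNA libraries. These groups were adjacent without overlap and did not pass (log2 0.28, 95% interval −0.23 to 0.78, edgeR adjusted p = 0.39). Its footprints were at 86.7, 120 and 66.4 CPM in HF cells, against 43.8, 32.5 and 26.7 CPM in control cells. They rose 2.53-fold (log2 1.34, SE 0.24, edgeR adjusted p = 3.7e-05) without overlap.

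Footprints report which of these mRNAs ribosomes occupied. As a group, 5 members rose (Dusp1, Dusp5, Dusp6, Dusp10 and Dusp14), 1 fell (Dusp4) and 3 did not pass. Among 8375 protein-coding genes 22.4% were called higher and 20.9% lower. The members' median was 1.10, beside −0.02 over all genes tested. Dusp1, Dusp5 and Dusp10 were called higher in both assays.

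**Figure D2:**
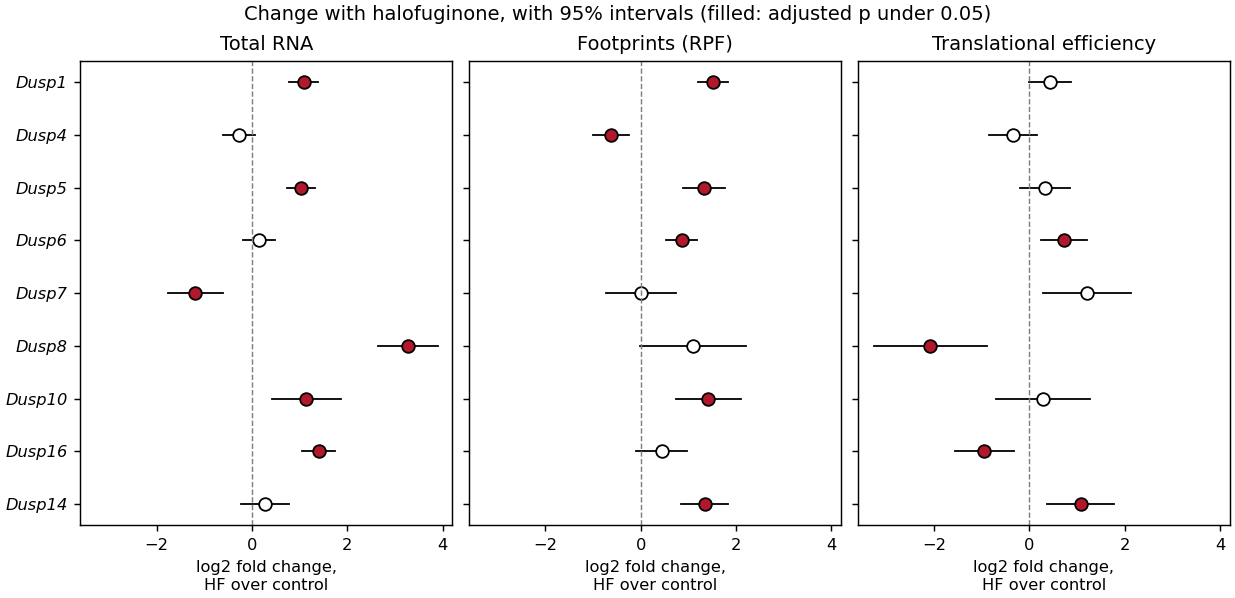
Log2 fold changes, HF over control, in total RNA, footprints and translational efficiency for the 9 members, with 95% intervals. Filled points passed at an adjusted p of 0.05, as in Dusp8, which lies at 3.27 in RNA and −2.09 in translational efficiency.

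Translational efficiency (TE) is the footprint level relative to the RNA level, and the test of its change was the assay by treatment term of a model of all 12 libraries. Neither the speed of ribosomes nor protein output was measured, so a TE change is not a change in protein made. TE of Dusp6 and Dusp14 rose, that of Dusp8 and Dusp16 fell, and 5 members did not pass. Among 7927 genes 6.11% were called higher and 8.35% lower, and the median was 0.32 over the members, beside 0.00 over all genes. For members called with all libraries, leaving out 1 library at a time ended the call in 20 of 47 fits in TE, against 1 of 36 in RNA and 0 of 36 in footprints. With each library left out in turn, 0 to 3 members were called higher and 0 to 2 lower.

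For Dusp8 the ratio of mean footprint CPM to mean RNA CPM was 0.169 in HF cells, against 0.861 in control cells. TE fell by 2.09 on the log2 scale (SE 0.59, edgeR adjusted p = 0.011), which ranked 80 of 7927 by size. The call ended without RPF control 3 (log2 −1.69, edgeR adjusted p = 0.061), where Dusp8 had the highest CPM of its group. Without RPF HF 1 Dusp8 did not pass the count filter.

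For Dusp16 the same ratio was 0.323 in HF cells, against 0.635 in control cells, and TE fell by 0.95 (SE 0.30, edgeR adjusted p = 0.028). That call ended without any of RNA control 1, RNA HF 1, RNA HF 2, RPF control 3, RPF HF 1 or RPF HF 3, at log2 values of −0.93 to −0.81 (edgeR adjusted p = 0.051 to 0.089). Dusp8 and Dusp16 are the members whose RNA rose without a called rise in footprints. Dusp10, of the same preference, had ratios of 1.12 in HF and 0.876 in control cells (log2 0.29, 95% interval −0.70 to 1.27, edgeR adjusted p = 0.78). Whether Dusp10 differs from Dusp8 or Dusp16 in TE was not tested.

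Dusp14 had a ratio of 1.73 in HF cells, against 0.792 in control cells (log2 1.07, SE 0.35, edgeR adjusted p = 0.031). This call ended without RNA control 1, RNA HF 2, RNA HF 3, RPF control 2, RPF control 3 or RPF HF 2, at 0.84 to 1.05 (edgeR adjusted p = 0.066 to 0.13). Dusp6 had 1.51 in HF cells, against 0.916 in control cells (log2 0.72, SE 0.24, edgeR adjusted p = 0.032). Its call ended without RNA control 2, RNA control 3, RNA HF 2, RNA HF 3, RPF control 1, RPF control 2 or RPF HF 3, at 0.59 to 0.75 (edgeR adjusted p = 0.052 to 0.11). The direction held for all 4 called members with every library left out, except that Dusp8 could not be tested without RPF HF 1.

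Dusp7 had a ratio of 1.23 in HF cells, against 0.494 in control cells, and did not pass (log2 1.20, 95% interval 0.28 to 2.12, edgeR adjusted p = 0.071). It passed without RPF control 2 (log2 1.455, edgeR adjusted p = 0.046) or RPF HF 1 (log2 1.56, edgeR adjusted p = 0.022). Dusp1 (log2 0.43, edgeR adjusted p = 0.19), Dusp5 (0.32, edgeR adjusted p = 0.47) and Dusp4 (−0.34, edgeR adjusted p = 0.42) did not pass either. The 95% interval of Dusp5 ran from −0.20 to 0.84 and that of Dusp4 from −0.85 to 0.16.

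**Figure D3:**
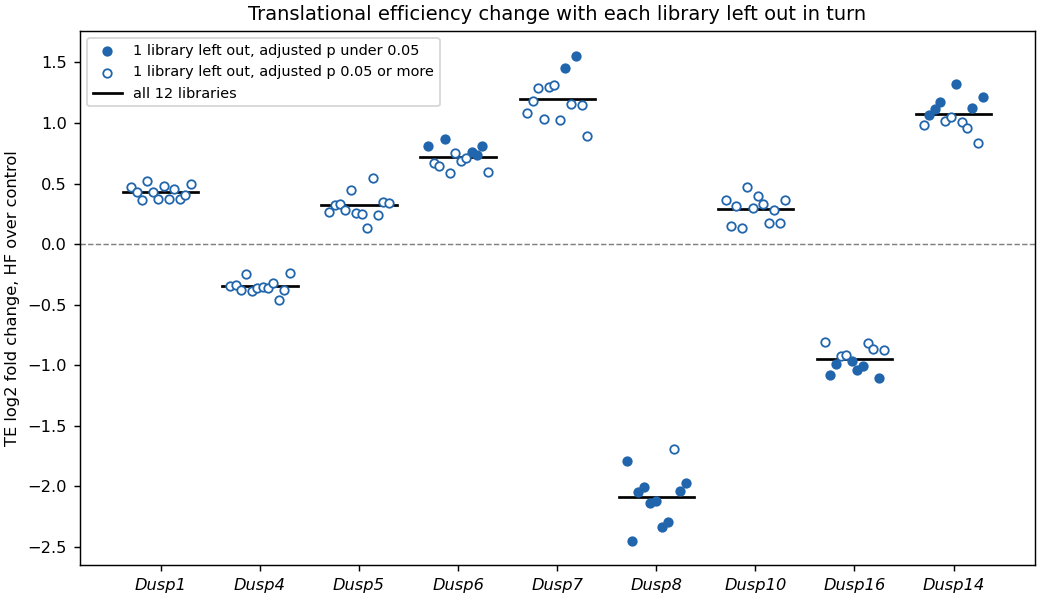
TE log2 fold change, HF over control, of each member with all 12 libraries (line) and with each library left out in turn (points, filled where the adjusted p stayed under 0.05). The values of Dusp16 stay between −1.11 and −0.81 while their calls come and go.

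Profiles over the 12 libraries, as log2(CPM + 1) centred within each assay, were compared with 7907 protein-coding genes by Pearson's r. These libraries share the treatment split, so r is a description and has no p. Dusp8 and Dusp16 were each other's nearest gene (r = 0.969), but 115 genes had an r over 0.9 with Dusp8 and 83 with Dusp16. The next for both was Zbtb38, a zinc finger protein, close behind at 0.968 for Dusp8 and 0.965 for Dusp16. Zbtb38 was at 1.88 in RNA, 0.92 in footprints and −0.95 in TE on the log2 scale. Nearest to Dusp1 was the transcription factor Ets1 (r = 0.995), and 553 genes had an r over 0.9 with it. Dusp5 was closest to Oxnad1, Kitl and Nabp1 (0.98 each), Dusp10 to Phc3, Adamts1 and Rapgef2 (0.97 each), and Dusp4 to Npepps (0.98), Coasy and Rbbp6 (0.97 each). Few genes resembled Dusp6 and Dusp7, with 8 and 5 over 0.9. Their nearest were Ugdh (0.95) and Wiz (0.93), and that of Dusp14 was Hjurp (0.95).

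Of 13 further dual-specificity phosphatases, 7 were tested in RNA, with 2 higher and 1 lower, and 6 in footprints, with 3 higher and 0 lower. In TE 2 of 6 were higher. The Dusp11 calls ended without 3 of the 6 libraries in footprints and without 7 of the 12 in TE. Dusp2, an inducible nuclear MAP kinase phosphatase outside the 9, had 122, 135 and 154 footprint CPM in HF cells, against 4.46, 4.29 and 5.62 in control cells. Its RNA was at 66.8, 46.2 and 58.3 CPM in HF cells, against 9.66, 11.3 and 10.5 CPM in control cells. RNA rose by a log2 of 2.45 (SE 0.34), footprints by 4.85 (SE 0.29) and TE by 2.40 (SE 0.49, edgeR adjusted p = 3.8e-04), and TE held with every library left out. Its control footprint counts were 11, 7 and 4, so Dusp2 entered the footprint and TE tests through its HF libraries. Dusp9, a cytoplasmic ERK phosphatase, had 14 RNA counts over the HF libraries and 55 over the control ones (log2 −2.32, edgeR adjusted p = 0.0017), and that call ended without RNA control 1 (−1.98, edgeR adjusted p = 0.054). Dusp3 rose in RNA (0.78) and footprints (0.91).

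Among the kinases that these enzymes act on, of 8 tested MAP kinases 0 rose in RNA and 1 fell, Mapk3, which encodes ERK1, at 36.9, 36.4 and 21.8 CPM in HF cells, against 99.0, 63.4 and 56.7 CPM in control cells (log2 −1.26, SE 0.26, edgeR adjusted p = 6.2e-05). In footprints 0 of 8 rose and 2 fell, among them Mapk3 (−1.03). The kinases had a median log2 fold change of −0.26 in RNA and −0.23 in footprints, and 0 of 8 passed in TE. Of the Ras, Raf and MAP kinase kinase step 4 of 15 rose and 2 fell in RNA, with the kinase gene Braf at 2.36, and Map2k2, which encodes MEK2, at −1.29. In footprints 3 of 14 rose and 5 fell, among the latter the Ras activator Sos1 (−1.83, and −2.91 without RPF HF 1) and Map2k2 (−1.43), and 0 rose and 3 fell in TE. Braf rose by 1.16 in footprints, a call that ended without RPF HF 1 (0.85, edgeR adjusted p = 0.071). Its TE did not pass (−1.20, edgeR adjusted p = 0.074). Kinases activated by MAP kinases had 1 of 5 higher in RNA, Rps6ka5 at 1.86, and 1 lower, Rps6ka4 at −1.61, then 0 of 6 higher and 2 lower in footprints, and 0 and 1 of 5 in TE. The Rps6ka5 call ended without RNA control 1 or RNA HF 2 (1.48 to 1.71). For Mapkapk2 the footprint call (−0.83) ended without RPF HF 1 (−0.60), and the TE call (−0.81) without RNA control 2, RNA HF 2, RPF control 2 or RPF HF 1 (−0.75 to −0.55). Other phosphatases acting on MAP kinases had 2 of 5 higher in RNA, 1 higher and 1 lower in footprints, and Ppm1a lower in TE (−1.58). The Ppm1b call in RNA (0.73) ended without RNA control 1 (0.64, edgeR adjusted p = 0.071). In footprints that of Ppm1b (0.78) ended without RPF control 3 or RPF HF 1 (0.53 to 0.56) and under DESeq2, and that of Ppm1a (−1.18) without RPF control 2 or RPF HF 1 (−0.90 to −0.89).

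Genes that respond to ERK or feed back on it went both ways. In RNA 5 of 13 rose and 3 fell (median 0.52), in footprints 7 of 12 rose and 2 fell (median 0.91), and in TE 4 of 12 rose and 1 fell. Spry2, a feedback inhibitor of receptor tyrosine kinase signalling, had 165, 154 and 129 footprint CPM in HF cells, against 25.6, 11.03 and 19.7 CPM in control cells (log2 2.97, SE 0.24, edgeR adjusted p = 6.8e-12), and its TE rose by 2.04. Spred1, a related inhibitor, fell in footprints by 2.07 and in TE by 2.18, with 14, 0 and 4 footprint counts in HF libraries, against 66, 42 and 15 in control libraries. Its RNA did not pass, at 105, 131 and 121 CPM in HF cells, against 114, 114 and 94.5 CPM in control cells. Phlda1 rose by 1.41 in RNA and 1.78 in footprints, while Ccnd1, which encodes cyclin D1, fell by 1.70 and 0.90. Immediate early transcription factors rose in 14 of 14 cases in RNA and 13 of 14 in footprints, and 8 genes of the integrated stress response rose in 8 of 8 cases in both assays. In TE 3 of 14 and 3 of 8 of these rose and 0 fell. The lists were chosen with earlier results of these data known, so such counts are only a description. The Ddit3 call in TE ended in 11 of 12 fits with 1 library left out (log2 1.16 to 1.75, edgeR adjusted p = 0.050 to 0.29), with the replicate block, without a filter and with counts halved. That of Ppp1r15a ended without RNA control 3 or RPF control 1 (0.97 in both), and that of Egr1 without RNA control 1, RNA control 2, RPF control 1 or RPF control 2 (0.70 to 0.89), under DESeq2 and with counts halved. The TE calls of Atf4, Jund and Fosl2 held with every library left out. Fosl1 stands in both the ERK and the immediate early list.

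**Figure D4:**
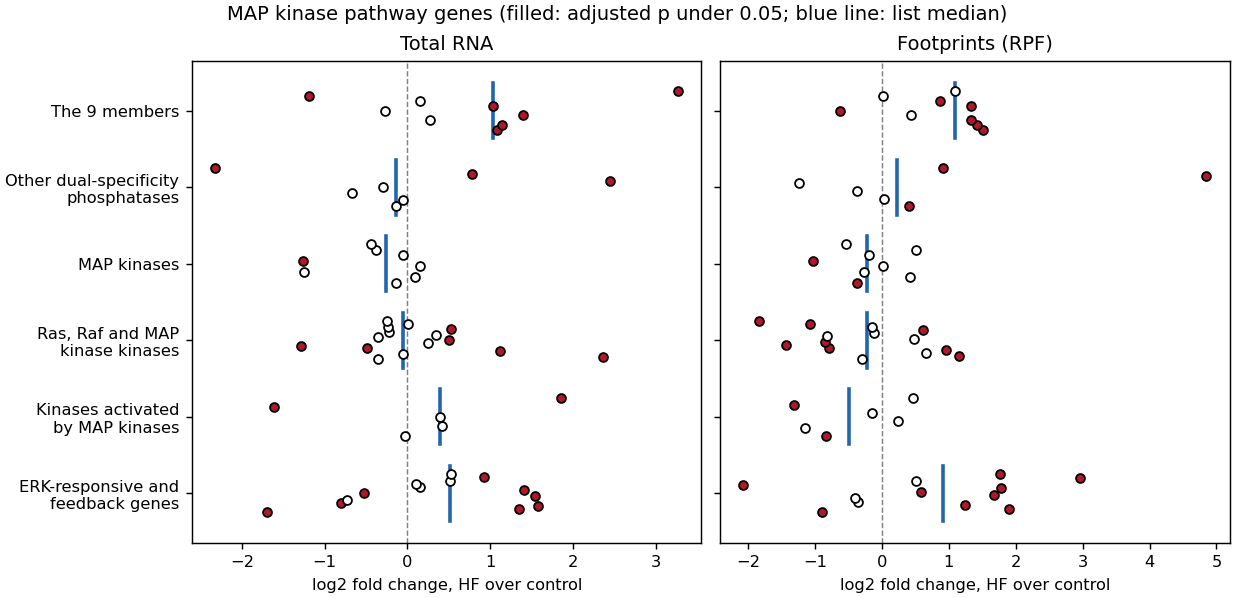
Log2 fold changes, HF over control, of the members and of 5 lists of MAP kinase pathway genes in total RNA and footprints. Filled points passed at an adjusted p of 0.05 and blue lines are medians. The members' medians lie at 1.03 in RNA and 1.10 in footprints, those of the MAP kinases at −0.26 and −0.23.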

How the data were processed

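The values the authors deposited are raw counts per Ensembl gene ID, 1 table for each library. The tools were Bowtie, HISAT2 and HTSeq and the build GRCm38, per the submitters' processing notes, which give no roles or order. Per the labels' protocols, total RNA was fragmented by alkaline hydrolysis, and footprints were made with RNase I and taken from the monosome fraction, with depletion of ribosomal RNA. Which feature was counted, whether strand was used and what became of multiply mapped reads is not given in the sources used here. Upstream reading frames may therefore add footprints, and Dusp6, Dusp8 and Dusp16, which overlap annotated lncRNAs, may share reads with them. Among RNA counts from 1 to 20, 78.0% to 80.3% were even, and 64.6% to 77.4% among footprints, so reads may not be counted singly and count-based precision may be overstated.

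Symbols were found for 55450 of 55536 gene IDs and a gene type for 38655, of which 21412 were protein-coding. Lines without a gene numbered 0. Totals ran from 562794 to 2527791 counts. Replicates differed by a chi-square of 2.26 to 4.45 per degree of freedom against counting noise. If reads were counted doubly, counting alone would raise it, so separate libraries are taken from the labels. Groups came from the library titles. Tests used R 4.3.3 and edgeR 4.0.16 (quasi-likelihood, TMM factors, filterByExpr with a minimum count of 10, Benjamini-Hochberg adjustment over all genes tested, threshold 0.05), on all genes for RNA and protein-coding genes for footprints and TE. TE was the assay by treatment interaction, with TMM factors within each assay. Each SE is the log2 fold change over the root of its F. Fitted folds can differ from ratios of mean CPM. No spike-in is described, so every change is set against most other genes. The fit was checked on simulated counts with the same dispersion for every gene. That check did not model the excess of even counts, so it does not cover it. Alternatives were RLE and upper-quartile factors, no filter or a minimum count of 30, DESeq2 1.42.0, a replicate block, other gene classes, each library left out, and counts halved (chosen after seeing the data).

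Members and lists were chosen with earlier results of these data known. The text names all 9 members, up to 4 called genes of each list with the largest changes, and genes from the 3 nearest to a member's profile. Some genes under this rule are not reported here. Spred1 RNA values and the Phlda1 and Ccnd1 footprint and RNA pairs complete genes named by that rule in another assay.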

Additional observations from a re-analysis of the deposited data

How the results depend on the processing

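Apart from left-out libraries, all 71 fitted values of members in RNA and all 60 in TE kept their direction and their side of the threshold. In footprints 66 of 70 did, and Dusp7, which did not pass, changed sign to −0.0691 with upper-quartile factors, −0.0065 without a filter, −0.0073 with a minimum count of 30 and −0.1079 with counts halved. Members with lower TE went to 1 under a minimum count of 30 and under counts halved, where Dusp8 left the test. Dusp8 left the footprint test under the same settings. Under a minimum count of 30 Dusp10 left the RNA and TE tests, and members higher in RNA went from 5 to 4. Members that left a test have no value among those counted above. With 1 library left out, Dusp7 footprints ran from −0.30 to 0.36, members with higher TE from 0 to 3 and with lower TE from 0 to 2, and in TE 20 of 47 values of called members lost the call and 2 values of Dusp7 gained it. The cause was not tested. Numbers of called genes stayed within 1.5 times. Upper-quartile factors moved the median of all genes to −0.07 in RNA and −0.10 in footprints. The replicate block changed no call of a member, with 3933 genes called in RNA, 3549 in footprints and 1087 in TE (3992, 3625 and 1146 without it). Deviations of same-numbered libraries correlated at −0.02 to 0.02, and those of differently numbered libraries at −0.04 to 0.03. No pairing by number was seen, but counting noise may hide one, so pairing was not excluded. Low counts limit Dusp8 footprints, with 47 counts over the HF and 31 over the control libraries.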
